A study of Mus musculus with 8 samples.

Results

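The genes described here are 46 interferon-stimulated genes, a set given by gene symbol and read from the arrays through the RefSeq accession that each probe carries. Of the 46 genes, 44 had at least 1 probe, 57 of the 55681 probes on each array, and 13 had several probes. Mx1 and Mx2 had no probe matched in this way and are not analysed here. All 44 measured members were among the 14102 genes that passed the filter on dim probes and were tested. The probes of 43 members were well above background on all 8 arrays. The probe of Ifit3 missed that mark on 1 of the 2 Irf8KO Flt3- arrays.

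RNA was taken from granulocyte progenitors (GPs) isolated from mouse bone marrow and separated by Flt3, a receptor tyrosine kinase on the surface of early progenitors. The 4 groups, with 2 arrays each, were Flt3+ GPs labelled Irf8KO, Flt3- GPs labelled Irf8KO, wild-type Flt3+ GPs and wild-type Flt3- GPs. All 4 were primary cells used as isolated, and no agent is named for any of them. The 2 arrays of a group came from 2 experiments described as independent. The sources used here do not state the strain, the age, the number of animals per array or the construction of the Irf8 allele. All p-values therefore rest on the spread between 2 arrays a group, part of which may be technical.

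Interferons signal through surface receptors and the kinases Jak1 and Tyk2 to factors that include Stat2 and Irf9, which bind the interferon-stimulated response element (ISRE) in front of their target genes. Interferon gamma acts at another element, the gamma-activated site (GAS). The targets include enzymes that sense or destroy viral RNA, proteins that block virus entry, GTPases that attack the vacuoles of intracellular pathogens, and the signalling proteins themselves. Bone marrow cells express many of them at a low level in the absence of infection. Irf8 is a factor of the same family as Irf9 that is needed for monocyte and dendritic cell development, and it binds ISREs and, with the ETS factor PU.1, composite ETS-IRF sites.

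The promoters of 5 genes are shown because these are members with wide differences between the groups and hold the ISRE core. Each is the stretch of 200 bases before the annotated start, from RefSeq on build GRCm38.p6, written 5′ to 3′ on the strand of the gene. They are Ifit3 (chr19:34583329-34583528, plus strand), Oas3 (chr5:120777660-120777859, minus strand), Rsad2 (chr12:26456453-26456652, minus strand), Ifit1 (chr19:34640689-34640888, plus strand) and Isg15 (chr4:156200819-156201018, minus strand). Capitals mark matches to the ISRE core, GAAANNGAAA, or to its reverse complement, TTTCNNTTTC.
Ifit3: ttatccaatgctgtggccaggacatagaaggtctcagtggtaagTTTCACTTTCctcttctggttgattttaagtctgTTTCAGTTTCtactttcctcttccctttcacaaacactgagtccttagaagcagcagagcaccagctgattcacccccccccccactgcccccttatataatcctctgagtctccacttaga
Oas3: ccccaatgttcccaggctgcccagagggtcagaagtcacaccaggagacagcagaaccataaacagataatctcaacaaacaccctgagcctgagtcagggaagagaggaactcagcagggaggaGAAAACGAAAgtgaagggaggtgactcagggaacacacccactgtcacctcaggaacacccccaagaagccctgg
Rsad2: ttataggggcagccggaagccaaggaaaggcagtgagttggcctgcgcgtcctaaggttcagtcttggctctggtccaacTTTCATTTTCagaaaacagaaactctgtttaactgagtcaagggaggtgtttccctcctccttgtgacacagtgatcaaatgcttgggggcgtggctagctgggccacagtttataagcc
Ifit1: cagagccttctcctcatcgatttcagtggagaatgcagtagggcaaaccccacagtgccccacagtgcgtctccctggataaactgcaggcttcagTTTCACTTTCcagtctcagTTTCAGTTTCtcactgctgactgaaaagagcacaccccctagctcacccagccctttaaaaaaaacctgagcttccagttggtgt
Isg15: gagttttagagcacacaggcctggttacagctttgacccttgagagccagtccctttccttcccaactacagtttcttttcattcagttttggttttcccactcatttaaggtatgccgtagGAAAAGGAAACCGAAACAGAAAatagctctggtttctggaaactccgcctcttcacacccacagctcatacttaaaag
Ifit3 and Ifit1 each held 2 separate matches, on the strand opposite to the gene. Oas3 and Rsad2 held 1 match each, and in Isg15 3 matches overlapped in 1 run.

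At least 1 window from 250 bases before to 50 bases after a start was available for 34 of the 46 members. The ISRE core was found on either strand in a window of 19 of these 34 members (55.9%), against 3.99% of the 27025 genes with a window. The ETS-IRF composite, GGAANNGAAA, was found in 5 of the 34 (14.7%), against 3.16% of all genes, and the GAS, TTCNNNGAA, in 10 of the 34 (29.4%), against 9.55%. Of the 3 members with both an ISRE core and a composite, all 3 had them overlapping in part. The map of ISRE positions shows 29 matches, of which 23 began before the annotated start and 6 after it. Those of Trim30a come from separate windows, each counted from its own start. A match describes the letters of the window only.

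**Figure D1:**
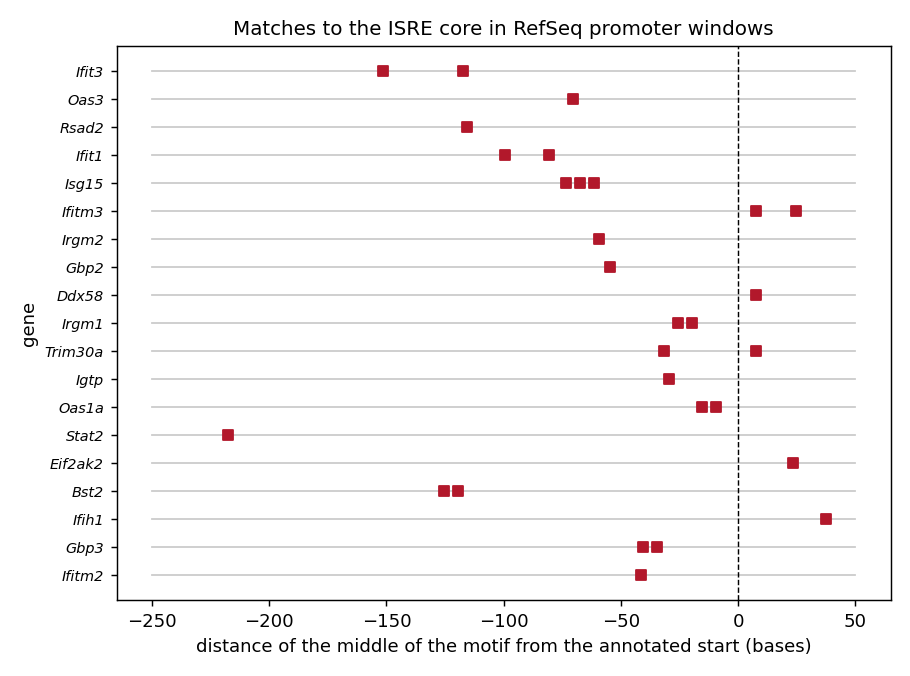
Positions of matches to the ISRE core (squares) in the RefSeq promoter windows (grey lines) of the 19 members that hold one. For Trim30a, matches of separate windows, each with its own start, share the line. The horizontal axis gives the distance in bases of the middle of each match from the annotated start (dashed line), and genes run from the highest Flt3+ minus Flt3- difference of wild type at the top, Ifit3 at 2.86, to the lowest, Ifitm2 at -0.27 on the log2 scale.

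Signals are given as log2 values over the 75th percentile of their own array, so that differences between groups are log2 differences of signal. Replicate arrays of a group correlated at r of 0.996 to 0.998 across all genes tested, which are not independent replicates, and 54.9 to 60.1% of spots were well above background with none saturated. The Irf8 probe read 6.67 and 6.67 in Irf8KO Flt3+, 5.63 and 5.53 in Irf8KO Flt3-, 5.80 and 5.87 in wild-type Flt3+ and 4.85 and 4.87 in wild-type Flt3- GPs. It was thus higher on the arrays labelled Irf8KO, by 0.83 in Flt3+ GPs (adjusted p = 0.00023) and by 0.72 in Flt3- GPs (adjusted p = 0.000399). The sources do not say which exons were removed or where this probe sits, a probe outside the removed stretch checks nothing, and the direction of every genotype difference below rests on the labels. The Flt3 probe, in turn, read 6.29 and 6.30 in Irf8KO Flt3+, 2.71 and 2.68 in Irf8KO Flt3-, 6.21 and 6.21 in wild-type Flt3+ and 1.69 and 1.66 in wild-type Flt3- GPs. All 8 arrays shared 1 slide, with the Irf8KO arrays in 1 row and the wild-type arrays in the other, and the Flt3+ arrays in columns 1 and 2 and the Flt3- arrays in columns 3 and 4, so that slide position and group cannot be told apart. All 8 granulocyte progenitor markers were well above background in every group, as were all 7 measured monocyte markers. Being above background alone therefore does not identify the cells.

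Across the 44 members, wild-type Flt3- GPs stood lowest. The median log2 signal over the members was 1.94 and 2.02 in Irf8KO Flt3+ GPs and 1.59 and 1.63 in Irf8KO Flt3- GPs. The Flt3+ population of wild type had medians of 1.92 and 2.02, and its Flt3- population 1.12 and 1.08. The Flt3+ arrays of both genotypes overlapped on this measure, and the Flt3- arrays of the 2 genotypes did not. The group with the highest mean was Irf8KO Flt3+ for 14 members, Irf8KO Flt3- for 4, wild-type Flt3+ for 22 and wild-type Flt3- for 4. The group with the lowest mean was Irf8KO Flt3+ for 7 members, Irf8KO Flt3- for 8, wild-type Flt3+ for 3 and wild-type Flt3- for 26. The commonest single order, held by 13 members, ran from wild-type Flt3+ through Irf8KO Flt3+ and Irf8KO Flt3- down to wild-type Flt3-. The heat map of the members shows that these patterns were not shared by all of them.

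**Figure D2:**
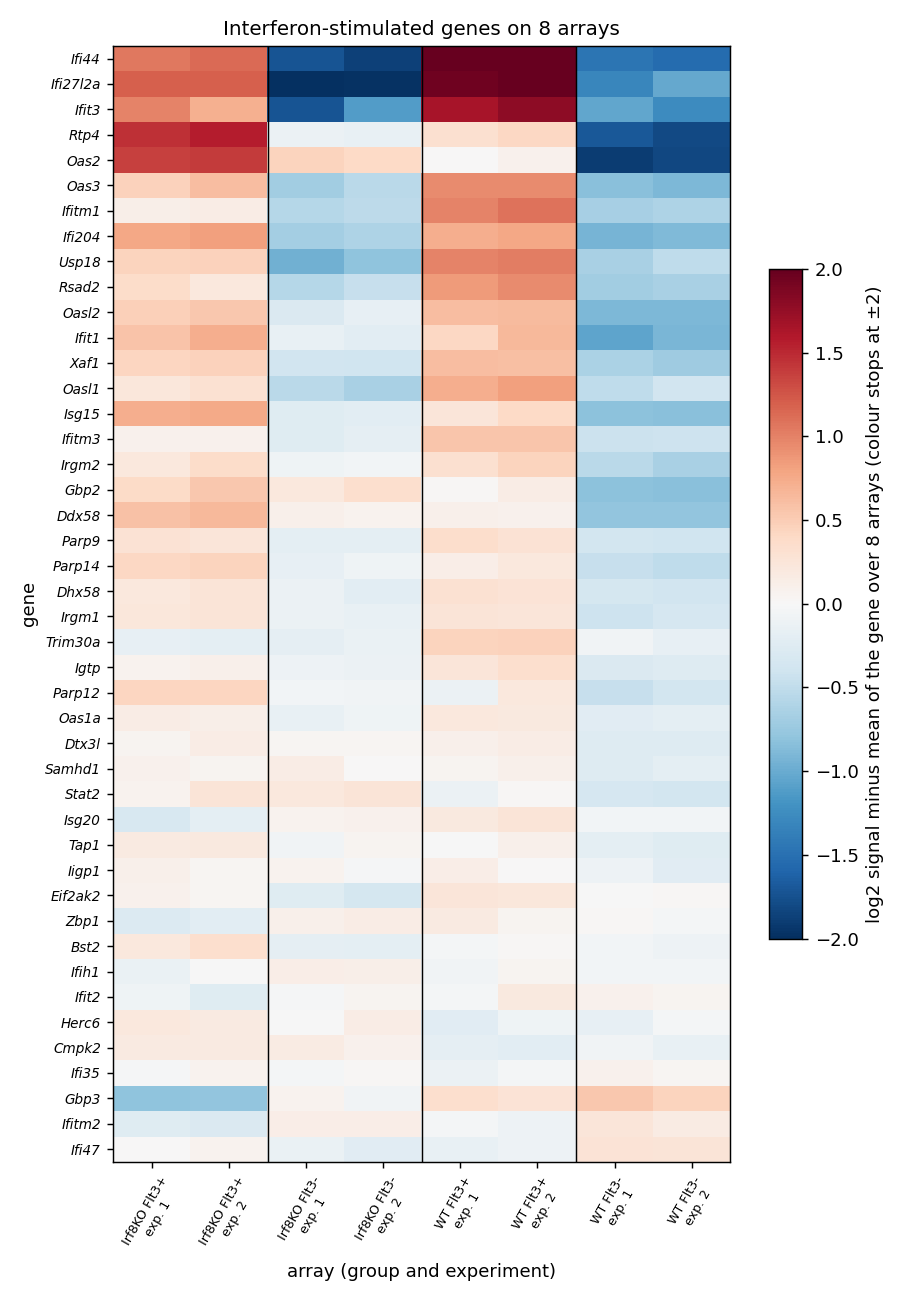
Log2 signal of the 44 measured interferon-stimulated genes (vertical axis) on the 8 arrays (horizontal axis, by group and experiment), minus each gene's mean over the 8 arrays, with colours stopping at ±2. Genes run from the highest wild-type Flt3+ minus Flt3- difference (Ifi44, 3.70) to the lowest (Ifi47, -0.39), and Rtp4 and Oas2 are darkest red in Irf8KO Flt3+ GPs, whereas Ifi44, Ifi27l2a and Ifit3 are darkest red in wild-type Flt3+ GPs.

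The first comparison asked how the populations differed in wild type. In wild-type GPs, most of these genes were higher in the Flt3+ than in the Flt3- population, with the widest difference at Ifi44 (13-fold). A gene was called where limma's adjusted p, over all 14102 genes, was under 0.05. Of the 44 members, 34 rose and 3 fell in Flt3+ GPs, where 22.7% of all genes tested rose and 39.1% fell. Both Flt3+ arrays lay above both Flt3- arrays for 36 members and below for 5, against 30.4% and 49.8% of all genes. At a difference of at least 2-fold, 15 members rose, against 7.81% of all genes, and the lowest member stood at -0.39, short of the 2-fold fall seen in 5.22% of all genes. The members' median difference was 0.64, against -0.11 over all genes. In these bulk samples, fewer cells of a type and less RNA per cell cannot be told apart.

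Of the 2′-5′ oligoadenylate synthetases, which make a messenger that activates RNase L, all 5 of 5 measured members were called higher in wild-type Flt3+ GPs. Over all genes tested, 22.7% were called higher and 39.1% lower, and these shares stand beside each family count of this comparison below. Oas2 read 3.71 and 3.74 in Irf8KO Flt3+, 2.78 and 2.74 in Irf8KO Flt3-, 2.35 and 2.42 in wild-type Flt3+ and 0.44 and 0.52 in wild-type Flt3- GPs. Both wild-type Flt3+ arrays lay above both wild-type Flt3- arrays and below all 4 Irf8KO arrays. The wild-type difference of Oas2 was 1.90 (SE 0.051, adjusted p = 3.23e-06). Oas3 read -1.45 and -1.30 in Irf8KO Flt3+, -2.61 and -2.45 in Irf8KO Flt3-, -0.98 and -0.97 in wild-type Flt3+ and -2.76 and -2.82 in wild-type Flt3- GPs, and its wild-type difference was 1.82 (SE 0.077, adjusted p = 1.46e-05). For Oas3 the populations were separate in both genotypes, with wild-type Flt3+ on top. Oasl2, a mouse family member with enzyme activity, differed by 1.53, Oasl1 by 1.22 and Oas1a by 0.41.

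The Ifit proteins bind foreign RNA, and 2 of the 3 measured rose. Ifit3 read -2.60 and -2.88 in Irf8KO Flt3+, -5.31 and -4.70 in Irf8KO Flt3-, -1.94 and -1.79 in wild-type Flt3+ and -4.62 and -4.85 in wild-type Flt3- GPs, a difference of 2.86 (SE 0.22, adjusted p = 0.000125) between the wild-type populations. All Flt3+ arrays lay above all Flt3- arrays, and the standard error was the widest of the 44 members. With normexp, which adds an offset of 50 to every signal, the Ifit3 difference was 1.24, and those of Ifit1 and Oas3 were 0.99 and 1.15. An added constant narrows the log2 differences of dim probes by itself, so that correction and offset cannot be told apart here. Ifit1 read -1.14 and -0.99 in Irf8KO Flt3+, -1.87 and -1.92 in Irf8KO Flt3-, -1.30 and -1.07 in wild-type Flt3+ and -2.77 and -2.63 in wild-type Flt3- GPs, a difference of 1.52 (SE 0.099, adjusted p = 7.02e-05). Ifit2, whose gene lies beside those of Ifit1 and Ifit3, did not pass the test, at 0.0085 (SE 0.096, adjusted p = 0.946).

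Among proteins that act at membranes or on nucleotides, 3 of 6 rose and 1 fell. Ifitm1, which hinders the fusion of viruses with host membranes, read 4.18 and 4.21 in Irf8KO Flt3+, 3.48 and 3.54 in Irf8KO Flt3-, 5.05 and 5.14 in wild-type Flt3+ and 3.39 and 3.44 in wild-type Flt3- GPs. Its wild-type Flt3+ arrays stood above the other 6 arrays, with a wild-type difference of 1.68 (SE 0.052, adjusted p = 5.18e-06). Its relatives Ifitm3 and Ifitm2 differed by 0.99 and -0.27, the second of these being among the 3 members that fell. Rsad2 (viperin), which makes a chain-terminating nucleotide, read -0.60 and -0.76 in Irf8KO Flt3+, -1.54 and -1.42 in Irf8KO Flt3-, -0.12 and -0.017 in wild-type Flt3+ and -1.66 and -1.62 in wild-type Flt3- GPs, a difference of 1.57 (SE 0.075, adjusted p = 2.28e-05). Its neighbour Cmpk2, a mitochondrial nucleotide kinase, did not pass the test at -0.080 (SE 0.048, adjusted p = 0.203), nor did Bst2 (tetherin), which holds virions at the cell surface and is a surface marker of mouse plasmacytoid dendritic cells, at 0.070 (SE 0.057, adjusted p = 0.328).

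Of the interferon-inducible GTPases, 5 of 7 rose and 2 fell, against 22.7% and 39.1% of all genes. Irgm2 (0.97), Gbp2 (0.90), Irgm1 (0.63), Igtp (0.57) and Iigp1 (0.23) were higher in wild-type Flt3+ GPs. Ifi47 was lower, at -0.39 (SE 0.051, adjusted p = 0.00118), and so was Gbp3, at -0.19 (SE 0.065, adjusted p = 0.0432), a call that held in 6 of 16 alternatives run. Under quantile normalization between arrays, which moved the median of all genes to -0.013, none of Ifi47, Ifitm2 and Gbp3 was called, and Ifitm2 turned to 0.037. That normalization also changed the split over all genes, to 4199 higher and 4116 lower against 3196 and 5516.

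Among nucleic acid sensors, 4 of 6 rose. Ifi204, of the DNA-sensing p200 family, read 2.60 and 2.64 in Irf8KO Flt3+, 1.14 and 1.21 in Irf8KO Flt3-, 2.55 and 2.60 in wild-type Flt3+ and 0.90 and 0.94 in wild-type Flt3- GPs. Its Flt3+ arrays lay together in both genotypes, above all Flt3- arrays, and the wild-type difference was 1.66 (SE 0.048, adjusted p = 3.96e-06). Ddx58 (RIG-I), a sensor of viral RNA, differed by 0.89, its regulator Dhx58 (LGP2) by 0.65 and Eif2ak2 (PKR), which halts translation on double-stranded RNA, by 0.22. Ifih1 (MDA5) at 0.045 (SE 0.061, adjusted p = 0.555) and Zbp1, a sensor of Z-form nucleic acid, at 0.13 (SE 0.059, adjusted p = 0.108) did not pass.

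Isg15, a ubiquitin-like protein joined to other proteins, rose by 1.14 (SE 0.062, adjusted p = 3.43e-05). Usp18, which removes Isg15 and restrains the interferon receptor, read -0.31 and -0.29 in Irf8KO Flt3+, -1.71 and -1.56 in Irf8KO Flt3-, 0.24 and 0.27 in wild-type Flt3+ and -1.39 and -1.25 in wild-type Flt3- GPs and rose by 1.58 (SE 0.071, adjusted p = 1.85e-05). For both genes every Flt3+ array lay above every Flt3- array. The ubiquitin ligases Trim30a (0.57) and Dtx3l (0.38) rose, and the Isg15 ligase of mouse, Herc6, did not pass (-0.050 (SE 0.083, adjusted p = 0.626)). All 3 ADP-ribosyltransferases rose, Parp9 by 0.71, Parp14 by 0.66 and Parp12 by 0.46. So did the dNTP hydrolase Samhd1 (0.30), the exonuclease Isg20 (0.28), the factor Stat2 (0.30) and the peptide transporter Tap1 (0.26), whereas Ifi35 did not pass (-0.15 (SE 0.056, adjusted p = 0.0669)).

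The remaining 4 members made up the widest group by median, at 2.63. Ifi44, an interferon-induced antiviral protein, read 0.019 and 0.10 in Irf8KO Flt3+, -2.77 and -2.90 in Irf8KO Flt3-, 1.15 and 1.18 in wild-type Flt3+ and -2.49 and -2.58 in wild-type Flt3- GPs. Ifi27l2a, a small hydrophobic protein of the Isg12 family, read 2.02 and 2.04 in Irf8KO Flt3+, -1.22 and -1.14 in Irf8KO Flt3-, 2.79 and 2.85 in wild-type Flt3+ and -0.46 and -0.19 in wild-type Flt3- GPs. In both genes all 4 Flt3+ arrays lay above all 4 Flt3- arrays, and wild-type Flt3+ was highest. Their wild-type differences were 3.70 (SE 0.065, adjusted p = 8.92e-07) for Ifi44 and 3.15 (SE 0.092, adjusted p = 4.22e-06) for Ifi27l2a. Rtp4, a chaperone that helps receptors reach the surface, read 4.43 and 4.54 in Irf8KO Flt3+, 2.85 and 2.82 in Irf8KO Flt3-, 3.29 and 3.38 in wild-type Flt3+ and 1.27 and 1.16 in wild-type Flt3- GPs. It differed by 2.12 (SE 0.063, adjusted p = 4.46e-06) in wild type, yet its highest arrays were the Irf8KO Flt3+ ones. Xaf1, a partner of the apoptosis inhibitor Xiap, rose by 1.28 (SE 0.043, adjusted p = 6.38e-06).

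**Figure D3:**
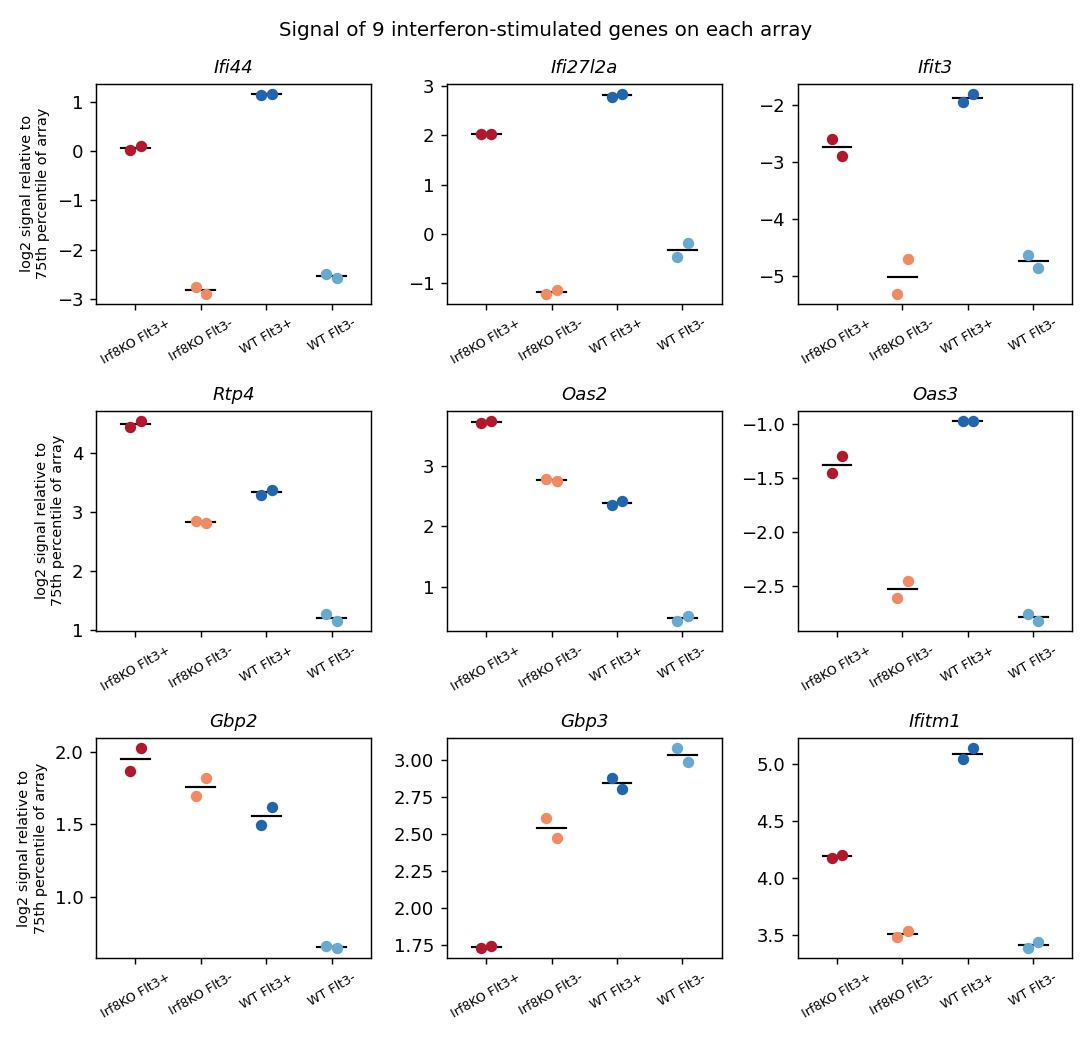
Log2 signal over the array's 75th percentile (vertical axes, each with its own range) of 9 interferon-stimulated genes in the 4 groups (horizontal axes). Points are single arrays and bars the mean of the 2 arrays of a group, and the panels show that Rtp4, Oas2 and Gbp2 were highest in Irf8KO Flt3+ GPs, Gbp3 in wild-type Flt3- GPs and the other 5 genes in wild-type Flt3+ GPs.

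A second probe gave another reading for some members. The probe with the highest mean stands for each gene here, and for 12 of the 13 members with several probes another probe gave the same sign in wild type. Iigp1 differed most: its dimmer probe was not well above background on either wild-type Flt3- array and was at least 3.93-fold higher in wild-type Flt3+ GPs, beside 0.23 (log2) on the probe used. Other probes gave 1.27 for Zbp1, 1.49 for Ddx58, 0.28 for Xaf1 and 0.034 for Samhd1 as the log2 difference. In Irf8KO against wild-type Flt3+ GPs, 4 of the 13 members had probes of opposite sign: Iigp1, Irgm1, Xaf1 and Dtx3l. Of these only Xaf1 was called there. The probe used and the other gave 0.00062 and -0.78 for Iigp1, and -0.014 and 0.39 for Irgm1. Members of the Oas, Ifit, Ifitm, Gbp and Irgm families are similar in sequence, so that a probe may read more than 1 of them, and their single values are uncertain to that extent.

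Of 38 other genes of the interferon pathway, 34 were tested in the same comparison, and 14 rose and 9 fell, with a median of 0.14. No probe of Ifnb1, Ifng or Tlr3 was well above background on any array, and that of Ifna4 was so on 1 array. Among the factors, 5 of 7 rose. Irf7, the factor that drives interferon production, read -0.48 and -0.57 in Irf8KO Flt3+, -1.95 and -1.68 in Irf8KO Flt3-, -0.39 and -0.54 in wild-type Flt3+ and -2.40 and -2.40 in wild-type Flt3- GPs, a wild-type difference of 1.93 (SE 0.10, adjusted p = 3.17e-05). Irf5 (1.04), Irf9 (1.03), Irf2 (0.97) and Irf1 (0.62) were also higher. Socs3, a feedback inhibitor of cytokine receptors, rose by 1.80 (SE 0.11, adjusted p = 4.87e-05). Ifngr1, the ligand-binding chain of the interferon gamma receptor, fell by 1.65 (adjusted p = 7.61e-06) and the kinase Ikbke by 1.07 (adjusted p = 0.000103).

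Markers of other cells moved with the same comparison. Of 10 plasmacytoid dendritic cell markers, 6 rose in wild-type Flt3+ GPs, with a median difference of 1.80 over the list and the widest at Ccr9 (4.98), Blnk (3.95), Ly6d (3.20) and Cox6a2 (3.08). The linear signals summed over the list were 234 to 272 times the 75th percentile, against 226 to 241 in wild-type Flt3- GPs, and without Siglech, which made up most of these sums, 58.4 to 64.4 against 43.5 to 44.6. Klk1 of this list was not well above background in wild-type Flt3- GPs. Of 5 tested conventional dendritic cell markers, leaving out Flt3, by which the populations were separated, 4 rose, with sums of 4.29 to 4.47 against 0.524 to 0.6, and Xcr1 and Cd209a were not well above background in any group. Of 7 markers of eosinophils, basophils and mast cells 6 fell, with sums of 11 to 11.7 against 135 to 136 and a median of -2.01. Of 7 tested lymphoid markers 4 rose and 1 fell, with sums of 139 to 146 against 98 to 99.2. Of 7 tested monocyte markers 4 rose and 3 fell, of 8 mature neutrophil markers 2 rose and 2 fell, and of 8 erythroid and megakaryocyte markers 4 rose and 4 fell. Of 8 granulocyte progenitor markers 6 fell, with a median of -1.85 and sums of 868 to 970 against 2219 to 2355. Mpo, Ctsg and Csf3r made up most of these sums. Cebpe read -0.16 and -0.028 in wild-type Flt3+ against 5.86 and 5.90 in wild-type Flt3- GPs, and Elane 3.66 and 3.58 against 8.36 and 8.25. The part of these markers in the differences of the interferon-stimulated genes was not tested.

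Members with and without the ISRE core were then set side by side, as a description. In this comparison 22.7% of all genes were called higher and 39.1% lower. The 19 members with an ISRE core had a median wild-type difference of 0.63, with 15 called higher and 2 lower. The 15 with a window and no ISRE core had a median of 0.30, with 10 called higher and 1 lower, and Ifi44, with the widest difference of all, was among these. The window of Ifi44 held an ETS-IRF composite, with its first base at -48 from the start. The 10 measured members without a window had a median of 1.14, with 9 called higher. Bst2 and Ifih1 held the core and were not called. Gbp3 and Ifitm2 held it and were called lower in the Flt3+ population, under the limits given for both.

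The second comparison set GPs labelled Irf8KO against wild type within the Flt3+ population. It split the members: Oas2 and Rtp4 were at least 2-fold higher on the Irf8KO arrays, and Gbp3 and Ifi44 at least 2-fold lower. In all, 10 of 44 members rose and 16 fell, where 16.2% of all genes rose and 12.6% fell. Both Irf8KO arrays lay above both wild-type arrays for 14 members and below for 22, against 38.7% and 27.8% of all genes. At 2-fold and more, 2 members rose and 2 fell, against 2.19% and 2.04% of all genes. The members' median difference was -0.062, against 0.037 over all genes.

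Oas2 was higher by 1.34 (SE 0.051, adjusted p = 4.45e-05) and Rtp4 by 1.15 (SE 0.063, adjusted p = 0.000157). In both, the 2 Irf8KO Flt3+ arrays lay above every other array. The other members called higher were Ddx58 (0.52), Isg15 (0.42), Gbp2 (0.39), Parp12 (0.38), Cmpk2 (0.37), Herc6 (0.36), Bst2 (0.28) and Parp14 (0.26). Oas3 and Oasl1, of the same family as Oas2, went the other way, at -0.40 (SE 0.077, adjusted p = 0.0141) and -0.51 (SE 0.071, adjusted p = 0.00491).

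Gbp3, a guanylate-binding GTPase, read 1.73 and 1.74 in Irf8KO Flt3+, 2.61 and 2.47 in Irf8KO Flt3-, 2.88 and 2.80 in wild-type Flt3+ and 3.08 and 2.98 in wild-type Flt3- GPs. The Irf8KO Flt3+ arrays lay below all 6 others, and the difference from wild-type Flt3+ was -1.11 (SE 0.065, adjusted p = 0.000196). Ifi44 was lower, at -1.10 (SE 0.065, adjusted p = 0.000199), as were Ifitm1, at -0.90 (SE 0.052, adjusted p = 0.000193), and Ifi27l2a, at -0.79 (SE 0.092, adjusted p = 0.0026). For each of these 3 the Irf8KO Flt3+ values still stood above both Flt3- groups. Trim30a, a ubiquitin ligase, read 1.14 and 1.09 in Irf8KO Flt3+, 1.12 and 1.16 in Irf8KO Flt3-, 1.74 and 1.76 in wild-type Flt3+ and 1.22 and 1.13 in wild-type Flt3- GPs, and its difference of -0.63 (SE 0.048, adjusted p = 0.00051) left the Irf8KO Flt3+ arrays overlapping the Flt3- arrays of both genotypes. Rsad2 (-0.61), Usp18 (-0.55) and Ifitm3 (-0.47) were also among the members that fell.

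Ifit3 was lower, at -0.87 (SE 0.22, adjusted p = 0.0317), and this call was lost with the experiment number as a block (adjusted p = 0.0542), without the filter on dim probes (adjusted p = 0.0725) and on leaving out any 1 of the 4 Flt3+ arrays (adjusted p = 0.0698 to 0.15). With normexp the Ifit3 difference was -0.48. The counts of calls leaned on single arrays too. Without experiment 1 of wild-type Flt3+ GPs, 5 of 44 members were called higher, a share no larger than the 11.6% of all genes in the same fit. Without experiment 2 of Irf8KO Flt3+ GPs, 5 were called higher, against 6.94% of all genes, and without experiment 1 of that group, 10 were called lower, against 7.02%.

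Of the 34 tested pathway genes, 9 rose and 5 fell in Irf8KO Flt3+ GPs, with a median of 0.014. Ifngr1 rose by 1.17 (SE 0.059, adjusted p = 0.000116) and Ikbke by 0.47, whereas Irf5 fell by 0.61 (adjusted p = 0.00837). Among the marker lists, all 8 of 8 mature neutrophil markers rose, with sums of 18.2 to 18.3 times the 75th percentile in Irf8KO Flt3+ GPs against 3.48 to 3.53 in wild-type Flt3+ GPs, and Mmp9 was not well above background in the wild-type group. Of 7 tested monocyte markers 5 rose, with sums of 142 to 147 against 67.1 to 70.1. All 8 of 8 erythroid and megakaryocyte markers fell, with sums of 1.82 to 1.84 against 22.7 to 23.1. Of 7 markers of eosinophils, basophils and mast cells 5 fell and 1 rose, with sums of 5.06 to 5.32 against 11 to 11.7. Of 7 tested lymphoid markers 4 rose, with sums of 252 to 273 against 139 to 146, and of 8 granulocyte progenitor markers 5 rose and 1 fell. Of 5 conventional dendritic cell markers other than Flt3, 1 rose and 3 fell. Of 10 plasmacytoid dendritic cell markers 2 rose and 3 fell, and Spib and Klk1 were not well above background in Irf8KO Flt3+ GPs. Their part in the differences of the interferon-stimulated genes was not tested.

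Within the Flt3- population, the third comparison, more of the members were higher on the Irf8KO arrays than lower. Of the 44, 23 rose and 6 fell, where 16.5% of all genes rose and 27.2% fell. Both Irf8KO arrays lay above both wild-type arrays for 31 members and below for 10, against 32.4% and 42.8% of all genes. At 2-fold and more, 3 members rose, against 1.77% of all genes, and the lowest stood at -0.85, short of the 2-fold fall seen in 1.86%. The members' median was 0.18, against -0.035 over all genes. Without experiment 1 of wild-type Flt3- GPs, the number called higher was 13, against 10.6% of all genes.

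The 3 members at 2-fold and more were Oas2, higher by 2.28 (SE 0.051, adjusted p = 1.71e-05), Rtp4, by 1.62 (SE 0.063, adjusted p = 8.45e-05), and Gbp2, by 1.10 (SE 0.077, adjusted p = 0.000398). Gbp2, a guanylate-binding GTPase, read 1.87 and 2.02 in Irf8KO Flt3+, 1.70 and 1.82 in Irf8KO Flt3-, 1.496 and 1.62 in wild-type Flt3+ and 0.66 and 0.65 in wild-type Flt3- GPs. Both wild-type Flt3- arrays lay below the other 6. Ddx58 read 2.46 and 2.52 in Irf8KO Flt3+, 1.97 and 1.94 in Irf8KO Flt3-, 1.99 and 1.96 in wild-type Flt3+ and 1.09 and 1.08 in wild-type Flt3- GPs, with the Irf8KO Flt3- arrays overlapping the wild-type Flt3+ arrays and a difference from wild-type Flt3- of 0.87 (SE 0.041, adjusted p = 0.000136). Ifit1 was higher by 0.81 (SE 0.099, adjusted p = 0.00197). Oasl2, which read 2.15 and 2.21 in Irf8KO Flt3+, 1.38 and 1.501 in Irf8KO Flt3-, 2.29 and 2.30 in wild-type Flt3+ and 0.77 and 0.77 in wild-type Flt3- GPs, was higher by 0.67 (SE 0.054, adjusted p = 0.000566). Isg15 read 3.20 and 3.23 in Irf8KO Flt3+, 2.23 and 2.26 in Irf8KO Flt3-, 2.71 and 2.87 in wild-type Flt3+ and 1.66 and 1.63 in wild-type Flt3- GPs and was higher by 0.60 (SE 0.062, adjusted p = 0.00115), with no overlap between any of the 4 groups. Stat2 (0.58) and Irgm2 (0.52) also rose, as did all 3 Parp members.

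The 6 members that fell were Ifi27l2a, Gbp3, Ifi47, Usp18, Eif2ak2 and Ifi44. Ifi27l2a was lower, at -0.85 (SE 0.092, adjusted p = 0.00134), and its Irf8KO Flt3- arrays were the lowest of the 8. Gbp3 was lower, at -0.49 (SE 0.065, adjusted p = 0.0024). Ifi47, an effector GTPase, read 4.53 and 4.60 in Irf8KO Flt3+, 4.40 and 4.30 in Irf8KO Flt3-, 4.39 and 4.43 in wild-type Flt3+ and 4.81 and 4.78 in wild-type Flt3- GPs, a difference of -0.44 (SE 0.051, adjusted p = 0.00161) with the lowest mean in Irf8KO Flt3-, overlapping wild-type Flt3+, and the highest in wild-type Flt3- GPs. Usp18 (-0.31), Eif2ak2 (-0.31) and Ifi44 (-0.30) made up the rest.

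**Figure D4:**
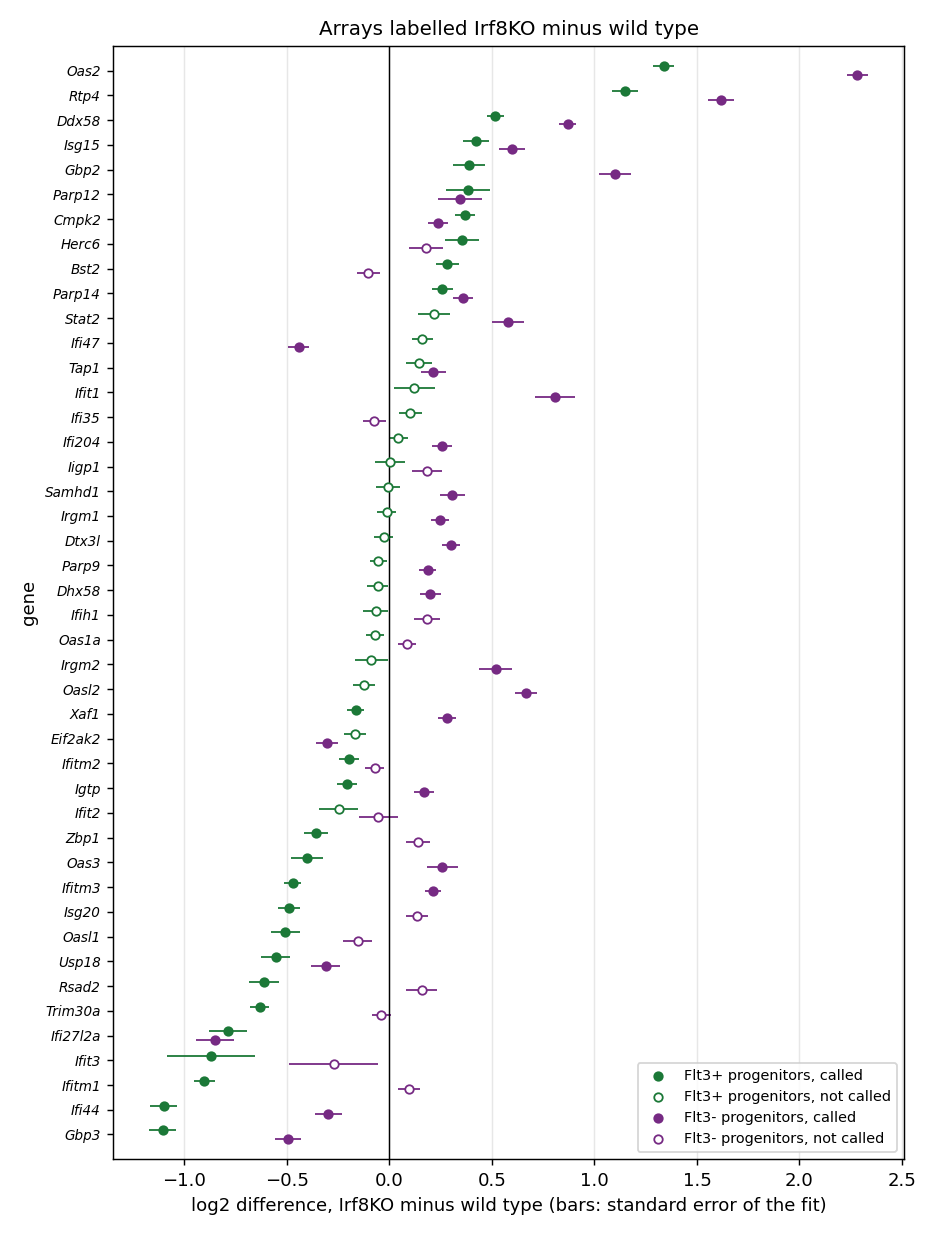
Log2 difference of signal, arrays labelled Irf8KO minus wild type (horizontal axis), for each of the 44 members (vertical axis) in Flt3+ GPs and in Flt3- GPs. Points are fitted differences, bars their standard errors and filled points calls at an adjusted p under 0.05. Oas2 stands highest in both populations, at 1.34 in Flt3+ and 2.28 in Flt3- GPs, and Gbp3 lowest in Flt3+ GPs, at -1.11.

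The plot of genotype differences shows both populations side by side. These 2 comparisons share no array, though their tests share the estimate of each gene's spread. A total of 8 members rose in both (Oas2, Rtp4, Ddx58, Isg15, Gbp2, Parp12, Cmpk2 and Parp14) and 4 fell in both (Gbp3, Ifi44, Ifi27l2a and Usp18). The share of all genes called in both is not given here, so these counts are not read as particular to the members. Another 4 were called lower in Flt3+ and higher in Flt3- GPs: Oas3, Ifitm3, Igtp and Xaf1. Of these, Ifitm3 kept the Flt3+ call in all 16 alternatives run and the Flt3- call in 15. The Flt3+ call of Xaf1 held in 4, its other probe gave 0.17 there, and the mean of both probes 0.0049. Igtp kept its call in 9 of 16 in Flt3+ and 8 of 16 in Flt3- GPs, and Oas3 in 14 and in 8. Among the members called in the same direction in both populations, Parp12 held in 7 of 16 in Flt3+ and 8 of 16 in Flt3- GPs, and the Flt3- difference of Ifi44 was -0.085 and not called with normexp (adjusted p = 0.288). A further 11 rose in Flt3- GPs and were not called in Flt3+ GPs, 8 fell in Flt3+ GPs and were not called in Flt3- GPs, and 5 were called in neither.

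Of the 34 pathway genes, 14 rose and 5 fell in Irf8KO Flt3- GPs, with a median of 0.17. All 4 receptor chains called rose, of 5 tested. Ikbke rose by 0.74 (SE 0.077, adjusted p = 0.00118) and Irf5 fell by 0.70 (adjusted p = 0.00319). Of 7 tested monocyte markers 5 rose and 2 fell, with sums of 151 to 152 in Irf8KO Flt3- GPs against 64.9 to 65.4 in wild-type Flt3- GPs. Of 7 markers of eosinophils, basophils and mast cells 6 fell, with sums of 63.7 to 63.9 against 135 to 136. All 8 of 8 mature neutrophil markers rose here too, with sums of 15.6 to 15.7 in Irf8KO Flt3- GPs against 10.4 to 10.8 in wild-type Flt3- GPs, and all 8 erythroid and megakaryocyte markers fell, with sums of 2.94 to 2.96 against 13.8. Of 10 plasmacytoid dendritic cell markers 2 rose and 3 fell, of 7 lymphoid markers 1 rose and 2 fell, of 8 granulocyte progenitor markers 4 rose and 1 fell, and of 5 conventional dendritic cell markers other than Flt3 1 rose and 1 fell. The Flt3 probe was higher by 1.02 (adjusted p = 7.84e-05) in the Irf8KO Flt3- group. The part of these in the members' differences was not tested.

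The fourth comparison, Flt3+ against Flt3- GPs among arrays labelled Irf8KO, again placed most members higher in the Flt3+ population. Of the 44, 29 rose and 5 fell, where 22% of all genes rose and 23.7% fell. Both Flt3+ arrays lay above both Flt3- arrays for 33 members and below for 6, against 34.6% and 41.8% of all genes. At 2-fold and more, 7 rose, against 6.08% of all genes, and the lowest stood at -0.80, short of the 2-fold fall seen in 4.38%. The members' median was 0.37, against -0.032 over all genes. The widest differences were those of Ifi27l2a, 3.21 (SE 0.092, adjusted p = 4.87e-06), Ifi44, 2.89 (SE 0.065, adjusted p = 2.49e-06), and Ifit3, 2.27 (SE 0.22, adjusted p = 0.000431). The value of Ifit3 rests on a group in which 1 of 2 arrays measured it well above background, and with normexp it was 0.52. Rtp4 rose by 1.65 (SE 0.063), Ifi204 by 1.45 (SE 0.048), Usp18 by 1.34 (SE 0.071), Oas3 by 1.16 (SE 0.077) and Isg15 by 0.97 (SE 0.062). All 5 Oas family members rose, as in wild type.

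The 5 members that fell were Gbp3 (-0.80 (SE 0.065, adjusted p = 0.000215)), Ifitm2 (-0.39), Zbp1 (-0.37), Isg20 (-0.34) and Ifih1 (-0.20). Averaging the probes of each gene left 3 of them called, without Zbp1, at -0.12 (adjusted p = 0.18), and Ifih1, at -0.15 (adjusted p = 0.354). The other probe of Zbp1 gave 0.12, and the call of Ifih1 held in 7 of 16 alternatives run. The wild-type and Irf8KO versions of this comparison share no array, though their tests share the estimate of each gene's spread. Called higher in both were 27 members, and lower in both 2, Gbp3 and Ifitm2. Neither of these 2 was called in wild type under quantile normalization. The share of all genes called in both is not given, so these counts are not read as particular to the members. Isg20, an RNA exonuclease, read 1.34 and 1.46 in Irf8KO Flt3+, 1.73 and 1.75 in Irf8KO Flt3-, 1.86 and 1.92 in wild-type Flt3+ and 1.61 and 1.61 in wild-type Flt3- GPs, and so rose in Flt3+ GPs of wild type and fell in those labelled Irf8KO. Ifi47 did the reverse, at 0.22 (SE 0.051, adjusted p = 0.0171) among Irf8KO arrays. Another 6 members that rose in wild type were not called here: Gbp2, Trim30a, Dtx3l, Samhd1, Stat2 and Iigp1. Bst2 rose on the Irf8KO arrays, by 0.46 (SE 0.057, adjusted p = 0.00132).

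**Figure D5:**
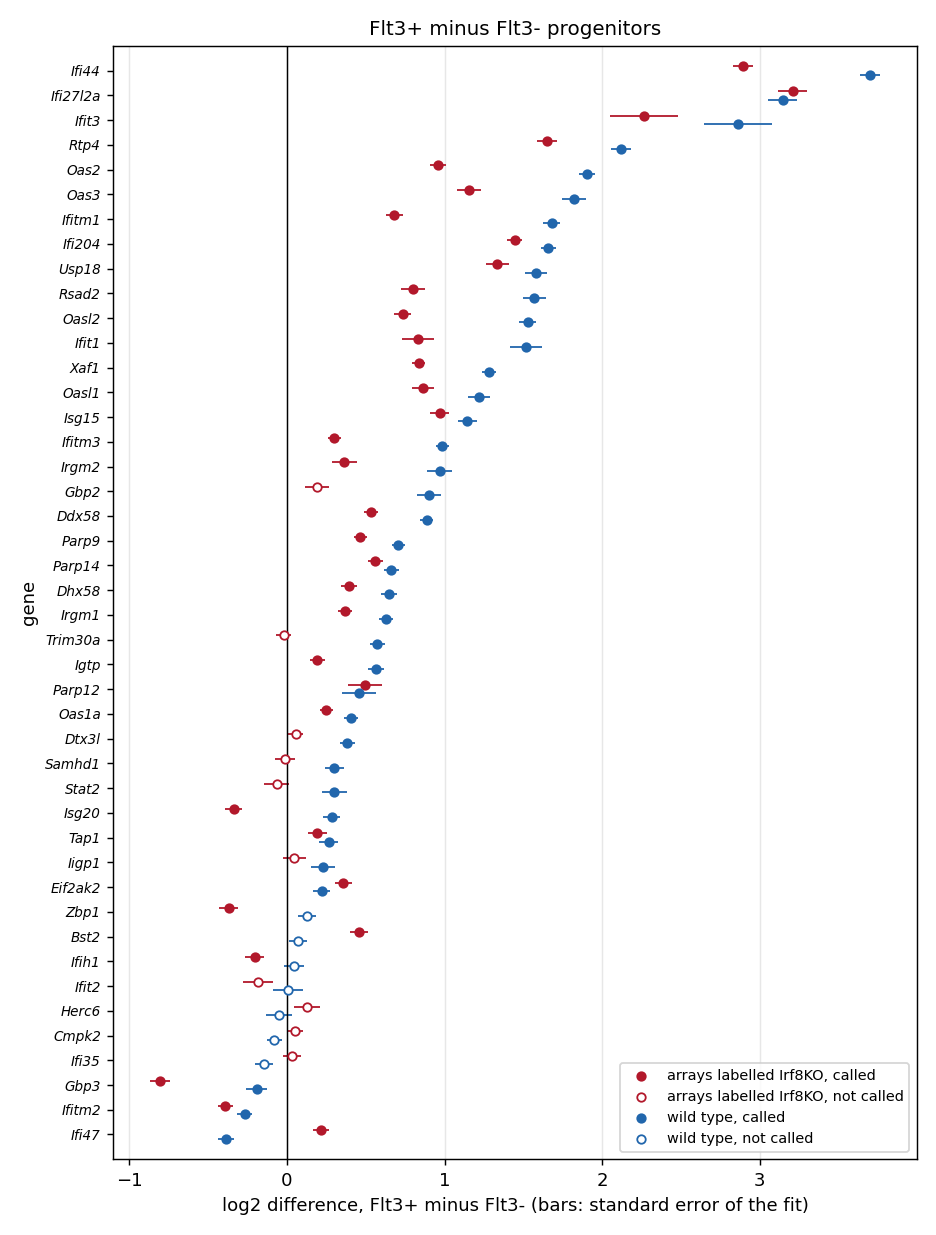
Log2 difference of signal, Flt3+ minus Flt3- GPs (horizontal axis), for each of the 44 members (vertical axis) on the arrays labelled Irf8KO and in wild type. Points are fitted differences, bars their standard errors and filled points calls at an adjusted p under 0.05. For most members the Irf8KO difference lies to the left of the wild-type one, as for Ifitm1, at 0.68 on the Irf8KO arrays and 1.68 in wild type.

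Of the 34 pathway genes, 17 rose and 7 fell in Flt3+ GPs among the Irf8KO arrays. Socs3 rose by 1.38 (SE 0.11, adjusted p = 0.000184) and Irf7 by 1.28 (SE 0.10, adjusted p = 0.000201), and Ikbke fell by 1.34 (adjusted p = 5.51e-05). Of the marker lists, 5 of 10 plasmacytoid dendritic cell markers rose, as did 3 of 5 conventional ones other than Flt3, with sums of 7.46 to 7.76 in Irf8KO Flt3+ GPs against 0.733 to 0.822 in Irf8KO Flt3- GPs. Of 7 tested lymphoid markers 4 rose and 1 fell, with a median of 2.25 and sums of 252 to 273 against 91.4 to 92.8. Nkg7, at 4.44 and 4.47 in Irf8KO Flt3+ against 6.45 and 6.47 in Irf8KO Flt3- GPs, made up most of the Flt3- sums, and Dntt read 7.79 and 7.91 against -0.93 and -0.85. Of 7 markers of eosinophils, basophils and mast cells 6 fell, with sums of 5.06 to 5.32 against 63.7 to 63.9. Monocyte markers were 2 higher and 3 lower of 7, mature neutrophil markers 4 higher and 2 lower of 8, and erythroid and megakaryocyte markers 1 higher and 4 lower of 8. Among granulocyte progenitor markers, 7 of 8 fell, with a median of -1.43 and sums of 1389 to 1398 in Irf8KO Flt3+ GPs against 2607 to 2861 in Irf8KO Flt3- GPs. Their part was not tested.

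Whether the genotype difference itself differed between the populations was tested as an interaction, (Irf8KO minus wild type in Flt3+) minus (Irf8KO minus wild type in Flt3-). For 24 of 44 members this was lower in Flt3+ GPs and for 2 higher, where 9.52% of all genes were lower and 21.2% higher. The members' median was -0.32, against 0.066 over all genes. Under quantile normalization the split over all genes was 1975 higher and 1873 lower, against 2993 and 1342, and 30 members were lower and 1 higher. Leaving out single arrays gave 16 to 21 members lower.

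The widest interaction was that of Ifitm1, at -0.998 (SE 0.074, adjusted p = 0.00147): it was lower on Irf8KO arrays by 0.90 in Flt3+ GPs, and the Flt3- difference was 0.095. Oas2 followed at -0.94 (SE 0.072, adjusted p = 0.00155), being higher on the Irf8KO arrays in both populations and more so in Flt3- GPs. Ifi44 stood at -0.80 (SE 0.091, adjusted p = 0.0036), Oasl2 at -0.79 (SE 0.076, adjusted p = 0.00243), Rsad2 at -0.77 (SE 0.11, adjusted p = 0.00575) and Gbp2 at -0.71 (SE 0.11, adjusted p = 0.00765). By family, 4 of 5 Oas members and 5 of 7 GTPases were lower, whereas neither Stat2 nor Ifi35 nor Tap1 was called. Among the lower ones, Oasl1 held in 5 and Irgm1 in 6 of 15 alternatives run. The members with a higher value were Ifi47, at 0.60 (SE 0.072, adjusted p = 0.00396), and Bst2, at 0.39 (SE 0.080, adjusted p = 0.0178). Among the 34 pathway genes 3 were higher and 4 lower, with Irf9 at -0.56 (SE 0.062, adjusted p = 0.00349), Irf7 at -0.65 (SE 0.14, adjusted p = 0.0218) and the DNA sensor Cgas at 0.59 (SE 0.098, adjusted p = 0.00945).

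Members whose genes lie next to each other, within 100 kb, did not always move together. On chromosome 19, Ifit3 and Ifit1 rose in wild-type Flt3+ GPs by 2.86 and 1.52, while Ifit2 stood at 0.0085 and was not called. On chromosome 12, Rsad2 rose by 1.57 and Cmpk2 stood at -0.080, not called. On chromosome 3, Gbp2 rose in the same comparison and Gbp3 was called lower, a call held in 6 of 16 alternatives run, and on the Irf8KO arrays Gbp2 was higher and Gbp3 lower than wild type in both populations. On chromosome 5, Oas2 and Oas3 both rose in wild-type Flt3+ GPs, yet against wild type Irf8KO Flt3+ GPs were higher in Oas2 (1.34) and lower in Oas3 (-0.40). On chromosome 7, Ifitm1 and Ifitm3 rose in wild-type Flt3+ GPs and Ifitm2 fell. On chromosome 16, Parp9, Parp14 and Dtx3l all rose in that comparison, as did Igtp and Irgm2 on chromosome 11.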

How the data were processed

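RNA of 8 samples was hybridised to 1-colour Agilent arrays. Per the file headers, scans were processed with Agilent Feature Extraction 10.7.3.1, and the deposited processed intensity is background-subtracted and scaled by that software. The headers' design build is mm9, and flags of the deposited files mark control, outlier, saturated and well-above-background spots. The deposited series table was the same intensity multiplied by a factor per array (0.672 to 1.33), with column medians of 26.9 to 29.9. It was used as an alternative.

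Control and outlier spots (93 to 178 per array) were left out, spots of a probe averaged, and log2 intensity taken minus that of the array's 75th percentile (360 to 713 before logs). Of 55681 probes, 26756 were named through RefSeq accessions, as 20280 genes. A gene stood by its probe with the highest mean among probes that the flag placed well above background on every array of 1 group or more, which left 14102 genes. All 8 arrays were fitted in limma 3.58.1 under R 4.3.3, with 1 mean per group, empirical Bayes moderation and Benjamini-Hochberg adjustment over all genes. The fit had 4 residual degrees of freedom plus 1.77 from the prior. The number of arrays limits the precision. The script was tested on simulated data. An "at least" fold sets the bright group's mean against the higher of the dim probe's own signal and the lowest signal well above background on each dim array.

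Members, gene lists and marker lists were chosen with earlier results of these data known. The rule named, for each comparison, the 8 called members with the highest absolute log2 difference (interaction, 6). It also set the 4 such pathway genes and up to 5 promoters with an ISRE core. Of those pathway genes, all are given for the first comparison and only some for the others. Other members are given by role, and those outside the rule were picked after their values were seen. Experiment numbers 1 and 2 occur in each group, and the labels tie them to 2 experiments. Deviations from the group means correlated at -0.028 to 0.12 between groups. The experiment as a block was an alternative, beside quantile normalization, normexp (offset 50), the deposited table, 2 other filters, the mean over probes, only the arrays compared and leaving out each array. Normexp used the median spot signal, which the files used here give in place of the mean.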

Additional observations from a re-analysis of the deposited data

Results flagged for a closer look

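For 26 members, the difference between arrays labelled Irf8KO and wild type was not the same in Flt3+ and Flt3- GPs by the interaction term of limma (adjusted p under 0.05 over all 14102 genes). By the same term, 9.52% of all genes were lower and 21.2% higher. The values that follow are log2 differences, Flt3+ minus Flt3-, of the Irf8KO minus wild type difference. Negative values were -0.998 for Ifitm1, -0.94 for Oas2, -0.80 for Ifi44, -0.79 for Oasl2, -0.77 for Rsad2, -0.71 for Gbp2, -0.69 for Ifit1 and -0.68 for Ifitm3. They were followed by -0.66 for Oas3, -0.62 for Isg20, -0.61 for Gbp3, -0.61 for Irgm2, -0.59 for Trim30a, -0.50 for Zbp1, -0.47 for Rtp4 and -0.45 for Xaf1. The smallest were -0.37 for Igtp, -0.35 for Oasl1, -0.35 for Ddx58, -0.33 for Dtx3l, -0.31 for Samhd1, -0.26 for Irgm1, -0.26 for Dhx58 and -0.24 for Parp9. Positive values were 0.60 for Ifi47 and 0.39 for Bst2.

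With the experiment as a block, Dhx58, Oasl1 and Samhd1 were no longer called for this difference and Ifi204 and Stat2 were. Of 15 alternatives run, the calls of Dhx58, Oasl1 and Samhd1 held in 5 each and those of Irgm1 and Parp9 in 6 each. Averaging probes removed the call of Xaf1 (adjusted p = 0.132). Groups of 2 arrays were too small to look for single outlying arrays.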

How the results depend on the processing

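The members' median kept its sign in every comparison under each alternative run. Quantile normalization gave a wild-type Flt3+ minus Flt3- median of 0.76 with 0 members lower, and 1 member higher in the interaction. Of all genes, 29.2% were lower in the first of these and 14% higher in the second. Fitting only the arrays compared gave 6 members higher in Irf8KO against wild-type Flt3+ GPs, with 1312 genes higher and 1346 lower in all. Averaging probes gave 3 members lower in Flt3+ against Flt3- GPs of Irf8KO, where 23.7% of all genes were lower. Quantile normalization turned Ifitm2 in wild-type Flt3+ against Flt3- GPs to 0.037, and averaging probes turned Xaf1 in Irf8KO against wild-type Flt3+ GPs to 0.0049. The causes of these changes were not tested.

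Normexp lowered the population differences of dim members: Ifit3, Ifit1 and Oas3 stood at 1.24, 0.99 and 1.15 in wild type and at 0.52, 0.54 and 0.66 in Irf8KO, and Rsad2 at 0.49 in Irf8KO. Averaging probes gave 2.15 for Iigp1 and 0.78 for Xaf1 in wild type. Over all alternatives run, 29 of 34 higher and 0 of 3 lower calls held in every one in the wild-type populations, 5 of 10 and 10 of 16 in Irf8KO against wild-type Flt3+ GPs, 12 of 23 and 4 of 6 in Flt3- GPs, 24 of 29 and 3 of 5 in the Irf8KO populations, and 1 of 2 and 15 of 24 in the interaction.

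Leaving out 1 array at a time gave these ranges of members called. In Flt3+ against Flt3- GPs of wild type, 31 to 34 were higher and 2 to 3 lower (median 0.63 to 0.64). In Irf8KO against wild type, 5 to 10 were higher and 10 to 15 lower in Flt3+ GPs (median -0.079 to -0.032), and 13 to 23 higher and 5 to 6 lower in Flt3- GPs (median 0.18 to 0.20). In Flt3+ against Flt3- GPs of Irf8KO, 24 to 29 were higher and 4 to 5 lower (median 0.35 to 0.40). In the interaction, 1 to 2 were higher and 16 to 21 lower (median -0.34 to -0.28). Over the same fits, 18.6 to 22.4% of all genes were higher and 31.6 to 38.1% lower in the first of these comparisons, 6.94 to 14.9% and 7.02 to 11.8% in the second, 10.6 to 17.7% and 18.1 to 28% in the third, 16.4 to 22.7% and 17.6 to 25.7% in the fourth, and 11.7 to 22.1% and 5.89 to 9.13% in the interaction. Over all alternatives the Ifit3 difference between Irf8KO and wild-type Flt3+ GPs ran from -1.01 to -0.48, the upper end with normexp, and over the fits without 1 array from -1.01 to -0.73. It was -0.87 without the filter and with the block.

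With the experiment as a replicate block, 34 members were higher and 3 lower in the wild-type populations, 10 and 14 in Irf8KO against wild-type Flt3+ GPs, 24 and 6 in Flt3- GPs, 29 and 5 in the Irf8KO populations, and 2 and 23 in the interaction. In the same order, the shares of all genes higher and lower were 22.7 and 39.5%, 16 and 12.2%, 16.8 and 27.2%, 22.3 and 24.2%, and 21.3 and 9.76%. The block removed the calls of Ifit3 and Xaf1 in Irf8KO against wild-type Flt3+ GPs and of Tap1 in the Irf8KO populations, and added Gbp2 in the Irf8KO populations and Iigp1 in Irf8KO against wild-type Flt3- GPs. No slide block could be fitted, since all arrays shared 1 slide, and the interaction has no fit on fewer groups.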
